A study of Mus musculus with 5480 samples.

Results

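The 9 genes described here encode the main enzymes that remove superoxide and peroxides: the superoxide dismutases Sod1, Sod2 and Sod3, catalase (Cat), the glutathione peroxidases Gpx1, Gpx3 and Gpx4, and the peroxiredoxins Prdx1 and Prdx6. They were taken by name from a table of 18072 genes, and all 9 have a row. The table holds single mesenchymal cells of the distal lung of mice, 5480 in all, each amplified in a plate well and carrying 1 of 16 subtype names given by the submitters. The cells came from 10 mice in 5 groups. Mice kept in normal air were taken on embryonic day 18.5 (E18.5) or on day 1 (P1), day 7 (P7) or day 21 (P21) after birth, and a further group was taken at P7 after hyperoxia. Each group had 1 female and 1 male mouse, so the mouse was the replicate and n = 2 in every group. The strain, the oxygen level and the length of exposure are not given in the sources used here, and no genetic change is named for any mouse.

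Superoxide dismutases turn superoxide into hydrogen peroxide and oxygen: SOD1 works mainly in the cytosol, SOD2 in the mitochondrial matrix, and SOD3 outside the cell, bound to the matrix of vessels and airways. Hydrogen peroxide is then removed by catalase in peroxisomes, by glutathione peroxidases, which are selenoproteins, and by peroxiredoxins. The lung is known for high extracellular SOD, and the rise of antioxidant enzymes around birth and their response to high oxygen are long-standing subjects of work on the newborn lung.

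RefSeq promoter sequences (build GRCm38.p6) were found for 7 of the 9 genes. The 250 bases before the start site are shown for Sod1, Prdx1 and Gpx3, picked after their values were seen. Gpx3 had the highest level of any member. Sod1 was higher and Prdx1 lower in both hyperoxia mice than in both air mice, in each of 5 cell classes. By class, 15.3% to 26.5% of all genes lay higher in this way and 16.9% to 26.6% lower. No share was computed for all 5 classes at once. None of these Sod1 and Prdx1 differences passed an adjusted p of 0.05 in edgeR. Most cells of each hyperoxia mouse came from a run that held no air mouse, and the part of run was not tested. The 3 windows lie at chr16:90220512-90220761, chr4:116685349-116685598 and chr11:54902604-54902853, all on the plus strand. Capitals mark matches, on either strand, to TGACNNNGC, the core of the antioxidant response element bound by NRF2, and to TATAAA, the TATA box.
Sod1: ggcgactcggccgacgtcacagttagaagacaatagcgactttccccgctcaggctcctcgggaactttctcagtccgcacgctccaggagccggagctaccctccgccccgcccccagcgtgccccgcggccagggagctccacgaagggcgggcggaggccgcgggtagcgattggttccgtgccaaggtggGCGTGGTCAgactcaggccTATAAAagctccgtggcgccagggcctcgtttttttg
Prdx1: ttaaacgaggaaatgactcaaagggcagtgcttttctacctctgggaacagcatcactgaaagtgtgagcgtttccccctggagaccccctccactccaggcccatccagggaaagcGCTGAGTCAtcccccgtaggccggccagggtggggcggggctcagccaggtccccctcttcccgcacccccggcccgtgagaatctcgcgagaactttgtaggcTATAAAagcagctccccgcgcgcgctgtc
Gpx3: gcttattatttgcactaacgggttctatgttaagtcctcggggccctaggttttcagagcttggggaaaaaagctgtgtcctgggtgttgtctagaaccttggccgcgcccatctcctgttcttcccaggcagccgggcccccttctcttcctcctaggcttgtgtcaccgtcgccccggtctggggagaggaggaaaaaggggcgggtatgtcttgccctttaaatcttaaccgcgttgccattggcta
The Sod1 window held the antioxidant response core 56 bases before the start and TATAAA 37 bases before it, and the Prdx1 window held the same motifs 133 and 29 bases before it. The Gpx3 window held neither, and nor did the windows of Cat, Gpx1, Gpx4 and Sod2, which are not printed. The GC box GGGCGG, left in lower case, occurred in all 3 printed windows, 4 times in Sod1. No printed match overlapped a match to another of these motifs. Over 32851 RefSeq promoter windows of this length, 10.2% held TGACNNNGC, 12.4% held TATAAA and 32.7% held GGGCGG. These are letter matches and no measure of binding.

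Reads were summed per mouse and cell class, joining the names of 1 cell type at different ages (early alveolar with alveolar fibroblasts, and likewise for adventitial fibroblasts and airway smooth muscle), and 64 sums of at least 10 cells were kept. Levels are given as CPM (a gene's reads over all reads of the sum, times 1e6) with 1 scaling factor per sum. Values of single plates and of a small CD31 sort of the males are CPM without that factor. Depth ran from 39358 to 5177020 reads per cell and from 3124000 to 380642000 reads per sum. Reads carried no molecular identifiers, so depth does not give the number of molecules behind a value. In the mesenchymal (main) sort, sequencing run followed mouse: the males in normal air shared 1 run, the females at E18.5 and P1 another, and each other mouse had its own. Run and hyperoxia therefore cannot be told apart in the main sort. Sums were made of all cells, including the 71 of CD31 or CD45 sorts, some of them from other runs. Markers of alveolar and adventitial fibroblasts were highest in their own class in each group, and pericyte markers in pericytes wherever that class was compared. The myofibroblast list was highest in airway smooth muscle, and at P7 and P21 the airway smooth muscle list, which shares Acta2 and Myh11 with the vascular list, was highest in vascular smooth muscle. The alveolar fibroblast sums at E18.5 stood apart: they held 14 and 24 cells with a median of 1042 and 1232 genes each, and the female's epithelial markers summed to 872 CPM with 3 of 6 at 0.

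Of the 333 member tests made in 37 comparisons, 33 passed an adjusted p of 0.05 (edgeR's quasi-likelihood test, Benjamini-Hochberg over all genes). Of all genes, 0% to 10.9% passed, by comparison. Those calls fell on 4 genes: Sod3 with 13, Gpx3 with 13, Prdx6 with 4 and Gpx1 with 3. Sod1, Sod2, Cat, Gpx4 and Prdx1 had 0 calls in 37 comparisons each. Sod3 and Gpx3, with the most calls, encode the secreted enzymes of the set.

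Per kb of transcript (the median length of a gene's coding transcripts in GENCODE M21), the order of median levels over the 6 classes at P7 in normal air began with Prdx1 at 1195 CPM per kb, then Gpx1 at 671, Sod1 at 262 and Prdx6 at 224. Gpx3 followed at 162 CPM per kb, Cat at 69.3, Gpx4 at 68.3, Sod3 at 55.6 and Sod2 at 32.8. The place of Gpx4 leaves out the reads of its near-identical copy Gpx4-ps2, 382% of its own in all. At P21 Gpx3 headed the order with 3354 CPM per kb, ahead of Prdx1 at 855 and Gpx1 at 842 and Sod3 at 428. Cat and Gpx4 at P7, and Prdx1 and Gpx1 at P21, lay closer together than the mice of 1 group did. The length used sets part of this order: with all exons of a gene merged, Gpx1 at 366 CPM per kb lay above Prdx1 at 260 at P7, and Sod1 at 42.3 lay below Sod3 at 55.6 and Cat at 45.0. At P21 Sod3 at 428 CPM per kb then lay above Prdx1 at 186.

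**Figure D1:**
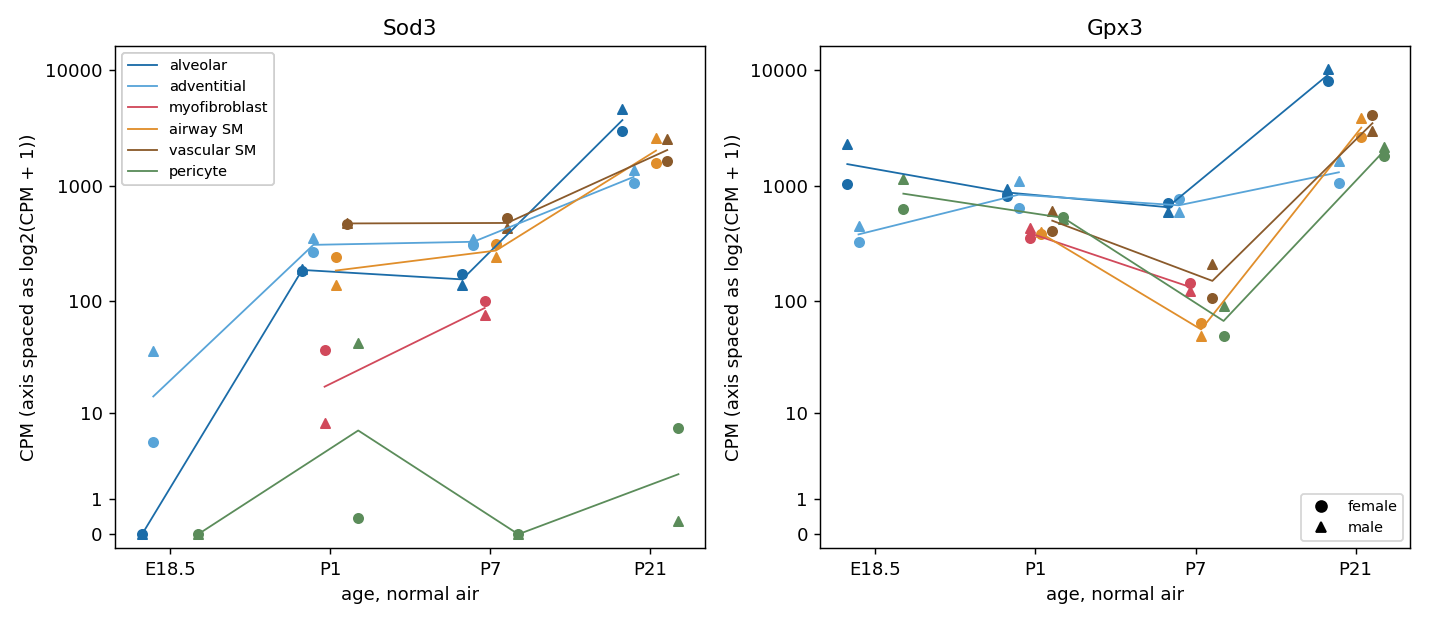
Levels of Sod3 and Gpx3 by age in normal air, in CPM on an axis spaced as log2(CPM + 1); circles are female mice, triangles male mice, and lines join class means. At P21 alveolar fibroblasts lie highest of the classes, at 2955 and 4575 CPM of Sod3 and 7921 and 10167 CPM of Gpx3, while pericytes stay at 7.26 CPM of Sod3 or below in every mouse but the P1 male (43.3 CPM).

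Sod3, the extracellular enzyme, was low at E18.5 and was carried by fibroblasts and smooth muscle after birth, with 0 reads in pericytes at E18.5 and P7 and reads in few of their cells at P1 and P21. In alveolar fibroblasts the E18.5 sums held 0 reads in both mice. At P1 the female had 183 CPM and the male 192 CPM, and at P7 they had 173 and 139.7 CPM. At P21 the levels were 2955 and 4575 CPM, above every other alveolar fibroblast sum in normal air. Adventitial fibroblasts had 5.27 and 36.6 CPM at E18.5, 268 and 356 CPM at P1, 309.7 and 349 at P7, and 1048 and 1353 at P21. Fibroblast precursors, named at E18.5 alone, had 6.43 and 6.15 CPM.

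The muscle classes reached similar levels at P21. Airway smooth muscle had 245 and 140.2 CPM at P1, 313 and 243 at P7, and 1556 and 2592 at P21. Vascular smooth muscle had 466 and 481 CPM at P1, 531 and 430.1 at P7, and 1645 and 2506 at P21. Myofibroblasts were lower, with 37.3 and 8.07 CPM at P1 and 102 and 75.7 at P7. Pericytes, the mural cells of small vessels, had 0 reads at E18.5 and at P7 in both mice. At P1 they had 0.381 and 43.3 CPM, each from a single cell, the latter above both P1 myofibroblast sums, and at P21 they had 7.26 and 0.309 CPM.

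From E18.5 to P1, 3 of 36 member tests passed, all of them Sod3 and all higher at P1. Alveolar fibroblasts, pooled over both mice, were 988-fold higher at P1 than a floor of 3 reads over the E18.5 group (adjusted p = 0.00817), where 6.16% of all genes were called. The fibroblast precursors of E18.5 and the early alveolar fibroblasts of P1 differed by 4.88 on the log2 scale (SE 0.39, adjusted p = 0.0036), against 0.125% of genes called. Adventitial fibroblasts rose by 4.11 (SE 0.63, adjusted p = 0.0427), against 0.17% of genes. In pericytes, with 0.042% of genes called, no member passed. The alveolar comparison rests on the E18.5 sums that stood apart: its median change over all genes was 1.35, and 956 of its 966 called genes were higher at P1. Leaving out a P21 mouse ended that call (adjusted p = 0.0587 without the female and 0.0578 without the male), as leaving out an E18.5 mouse did for the precursors (0.155 and 0.137), and the adventitial call ended without any 1 of the 8 mice aged P1 to P21 (0.0515 to 0.123) and without the term for sex (3.87, adjusted p = 0.0577). It also ended in the mesenchymal sort alone (0.0522), with only the 4 mice compared (0.336) and in 1 limma-voom fit of all classes (4.55, SE 1.77, adjusted p = 0.353 with an estimated correlation).

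From P7 to P21, Sod3 rose by 4.53 in alveolar fibroblasts (SE 0.44, adjusted p = 0.0376) and by 2.94 in airway smooth muscle (SE 0.42, adjusted p = 0.0140). These belong to 6 of 45 member tests that passed, where 0.0702% and 1.13% of all genes were called in the same classes. Vascular smooth muscle (2.09, SE 0.47, adjusted p = 0.272) and adventitial fibroblasts (1.83, SE 0.56, adjusted p = 0.350) did not pass. In both classes both P21 mice lay above both P7 mice, as they did for 16.6% of all genes in vascular smooth muscle and 23.3% in adventitial fibroblasts. In the males, sequenced in 1 run at all ages in normal air but for a few CD31-sorted cells, the differences were 5.03 in alveolar fibroblasts, 3.42 in airway smooth muscle, 2.54 in vascular smooth muscle and 1.96 in adventitial fibroblasts, with no replicate. That run held 556 of the male's 570 cells at P7 and 309 of 311 at P21. The alveolar call ended without any 1 of the 8 mice aged P1 to P21 (0.0559 to 0.747, with the change between 4.13 and 4.95), and the airway call ended without either P7 mouse in air (0.0783 and 0.128) and with only the 4 mice compared (2.90, adjusted p = 0.0674). The test of a difference between classes in this change did not pass for Sod3 (adjusted p = 0.605).

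More cells carried Sod3 as its level rose. After each cell was thinned to 100000 reads, 46.7% and 33.3% of alveolar fibroblasts in the female and the male had a Sod3 read at P7, against 98.9% and 88.6% at P21. Unthinned, the shares were 52.3% and 38.1% at P7 and 98.9% and 87.8% at P21. In airway smooth muscle the thinned shares went from 76.0% and 66.7% to 100% and 89.3%. In pericytes at P21 the unthinned shares were 5.71% and 2.67%, and the thinned shares 4.35% and 0%. The 0 of 72 thinned cells of the male allows a share of cells with a read at this depth of up to 4.17%, for counting error only.

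Among subtypes, Sod3 differed at P7 (adjusted p = 0.00216) and at P21 (adjusted p = 0.0214). Against a floor of 3 reads over both P7 pericyte sums, the level pooled over both mice was 7501-fold higher in vascular smooth muscle, 5114-fold in adventitial fibroblasts, 4455-fold in airway smooth muscle, 2494-fold in alveolar fibroblasts and 1352-fold in myofibroblasts. The floor counts reads, not molecules or cells, so a single pericyte with reads could lower these folds. With pericytes left out, an alternative added after the data were seen, Sod3 no longer passed at either age (adjusted p = 0.0532 at P7 and 0.779 at P21). Both calls also ended without 1 mouse of the same age, at P7 (0.0591 without the female, 0.180 without the male) and at P21 (0.0701 and 0.465), and the P21 call ended without either hyperoxia mouse (0.0636 and 0.0628).

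**Figure D2:**
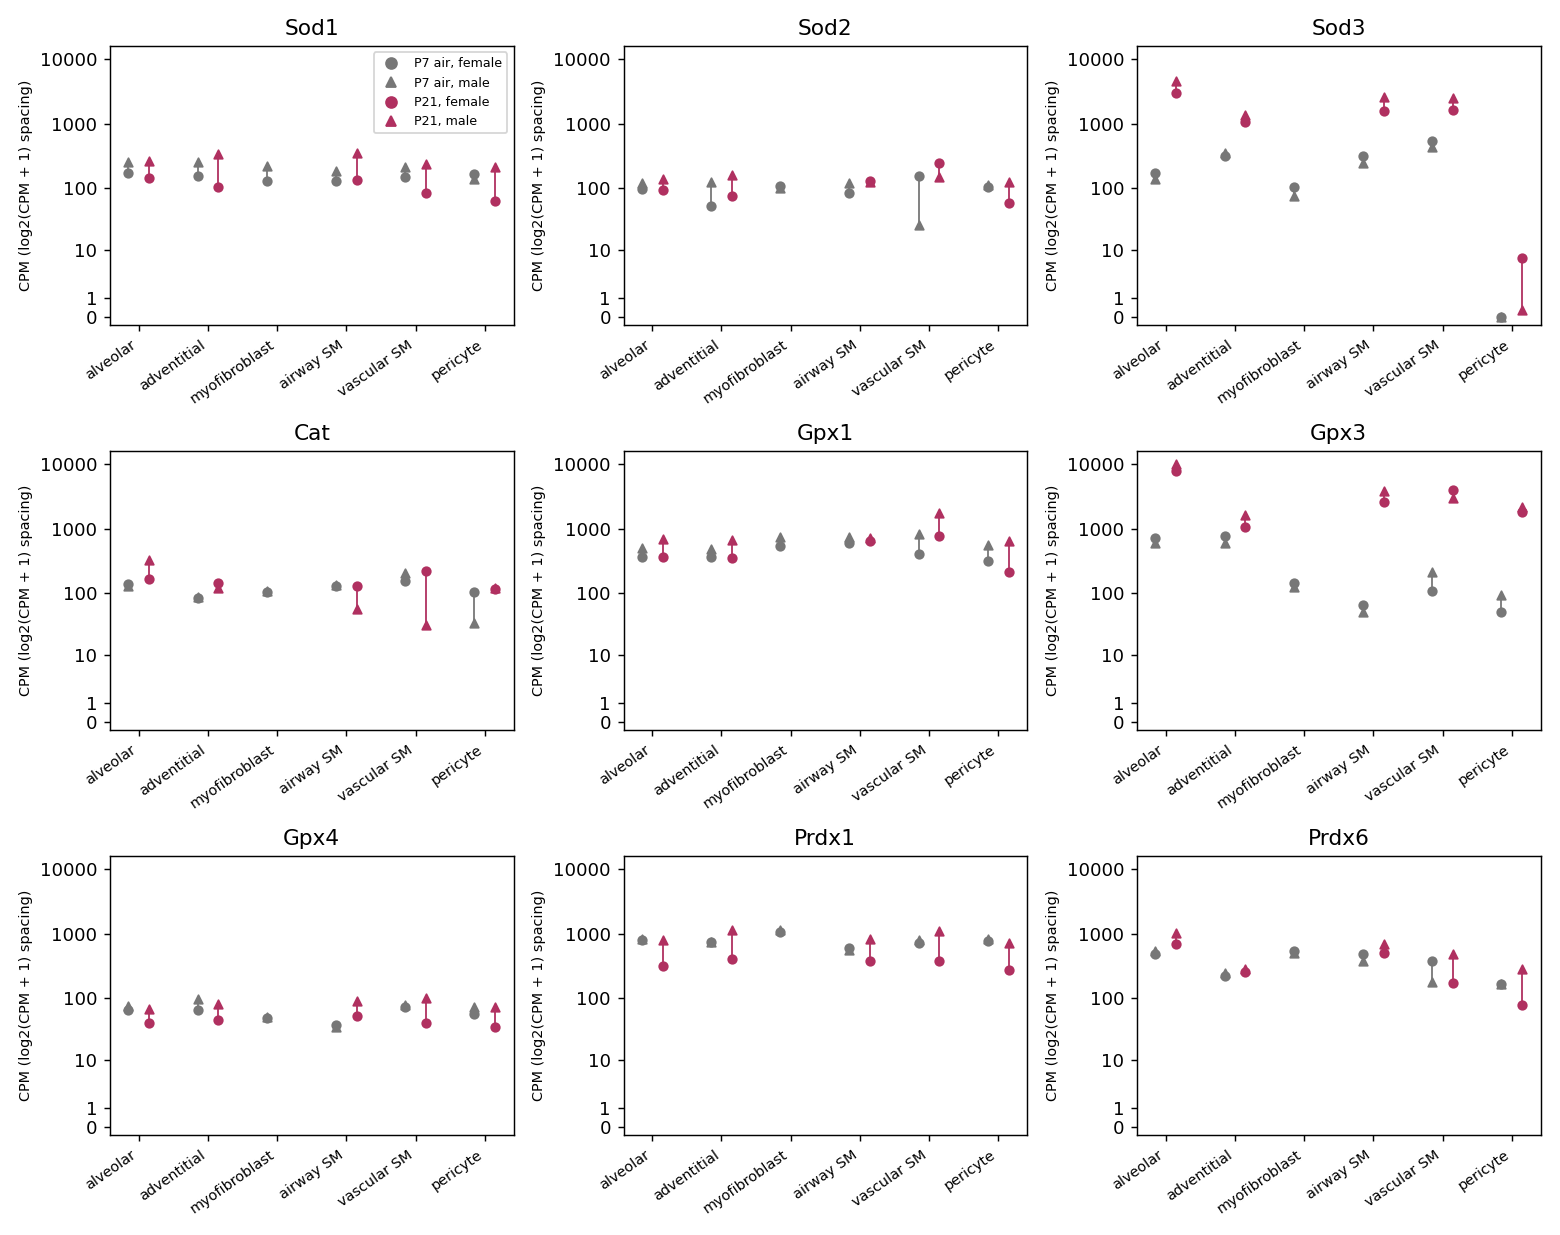
Levels of the 9 genes by cell class at P7 (grey) and P21 (magenta) in normal air, in CPM on an axis spaced as log2(CPM + 1); circles are female mice, triangles male mice, and a line joins the mice of a group. Pericytes lie at or near 0 for Sod3 at both ages, and at P7 Gpx3 separates alveolar and adventitial fibroblasts (593 to 775 CPM) from the other classes (49.9 to 211 CPM).

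Gpx3 encodes the secreted, plasma glutathione peroxidase. Its levels at P7 lay below those at P1 in the muscle classes, myofibroblasts and pericytes, and in each of the 5 classes named at P21 its highest mean came at that age. In alveolar fibroblasts the female and the male had 1033 and 2284 CPM at E18.5, 814 and 940.0 CPM at P1, 716 and 596 at P7, and 7921 and 10167 at P21. Airway smooth muscle had 381 and 396 CPM at P1, 64.5 and 50.2 at P7, and 2608 and 3847 at P21. The P7 mice of this class lay below the P1 mice, as for 14.4% of all genes, and below the P21 mice, as for 18.8%.

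Pericytes had 636 and 1148 CPM of Gpx3 at E18.5, 536 and 521 CPM at P1, 49.9 and 91.6 at P7, and 1809 and 2172 at P21. Vascular smooth muscle had 410.2 and 609 CPM at P1, 108 and 211 at P7, and 4048 and 2953 at P21. Adventitial fibroblasts had the narrowest range of the 5 classes followed to P21, with 324 and 447 CPM at E18.5, 643 and 1092 CPM at P1, 775 and 593 at P7, and 1047 and 1629 at P21. Fibroblast precursors at E18.5 had 1724 and 1692 CPM, close to each other and above the early alveolar fibroblasts of P1.

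From P7 to P21, the rise of Gpx3 passed in 4 of 5 classes. The change was 5.93 on the log2 scale in airway smooth muscle (SE 0.80, adjusted p = 0.0126) and 4.72 in pericytes (SE 0.54, adjusted p = 0.0055). Vascular smooth muscle rose by 4.48 (SE 0.60, adjusted p = 0.0229) and alveolar fibroblasts by 3.75 (SE 0.41, adjusted p = 0.0368). Adventitial fibroblasts differed by 0.91 (SE 0.35, adjusted p = 0.446) and did not pass. Both P21 mice of this class lay above both P7 mice, as for 23.3% of all genes. All genes called in the same comparisons came to 1.13% in airway smooth muscle, 0.0504% in pericytes, 0.0886% in vascular smooth muscle, 0.0702% in alveolar and 0.124% in adventitial fibroblasts. In the males, within 1 run but for the few CD31-sorted cells, the differences were 6.26, 4.57, 3.81, 4.09 and 1.46 in the same order of classes.

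The change with age differed between classes for Gpx3 (interaction, adjusted p = 0.00882), the single member of 9 that passed where 0.199% of genes did. This call ended without either P21 mouse (0.148 without the female, 0.330 without the male). The airway smooth muscle call held on leaving out each of the 10 mice in turn, but ended in the limma-voom fit of all classes (5.75, SE 2.22, adjusted p = 0.167 with an estimated correlation). The pericyte call ended without either P21 mouse (0.106 and 0.0951), the vascular call without any 1 of the 4 P7 air and P21 mice (0.0502 to 0.137), and the alveolar call without any 1 of the 8 mice aged P1 to P21 (0.0550 to 0.747, with the change between 3.44 and 4.06). In the same limma-voom fit the pericyte call (adjusted p = 0.630) and the vascular call (adjusted p = 0.415) ended too. The pericyte call also ended with only the 4 mice compared (0.0578), and the vascular call with at least 20 cells asked for (0.243).

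The rise was seen in the share of cells as well as in the level. With cells thinned to 100000 reads, 18.7% and 12.7% of airway smooth muscle cells in the female and the male had a Gpx3 read at P7, against 61.3% and 71.4% at P21. In pericytes the shares were 24.0% and 26.7% at P7 and 97.1% and 79.2% at P21, and unthinned they were 23.1% and 32.3%, then 97.1% and 78.7%. Alveolar fibroblasts went from 71.9% and 60.1% to 99.4% and 91.4%. Immune markers summed to 31.1 to 54.6 CPM in alveolar fibroblasts at P7 and 51.4 to 52.3 CPM at P21, and epithelial markers to at most 52.4 and 23.4 CPM. In pericytes, endothelial markers summed to at most 7.63 CPM at P7 and 42.1 CPM at P21, and their part in the result was not tested.

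Before that, from P1 to P7, 0 of 54 member tests passed, and 0 of 82146 tests over all genes in 6 classes (0% in each class), while 3945 of those and 6 of the member tests had an unadjusted p under 0.05. The differences for Gpx3 were -2.96 in pericytes (SE 0.50, adjusted p = 0.398), -2.86 in airway smooth muscle (SE 0.69, adjusted p = 0.701), -1.67 in myofibroblasts (SE 0.31, adjusted p = 0.380) and -1.65 in vascular smooth muscle (SE 0.53, adjusted p = 0.991). In these 4 classes and in alveolar fibroblasts, 5 of 6, both P7 mice lay below both P1 mice, as they did for 12.7% to 22.5% of all genes in those classes. DESeq2 called 4 member tests here, Gpx3 in pericytes, airway smooth muscle and myofibroblasts among them, and 2548 of all genes tested.

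**Figure D3:**
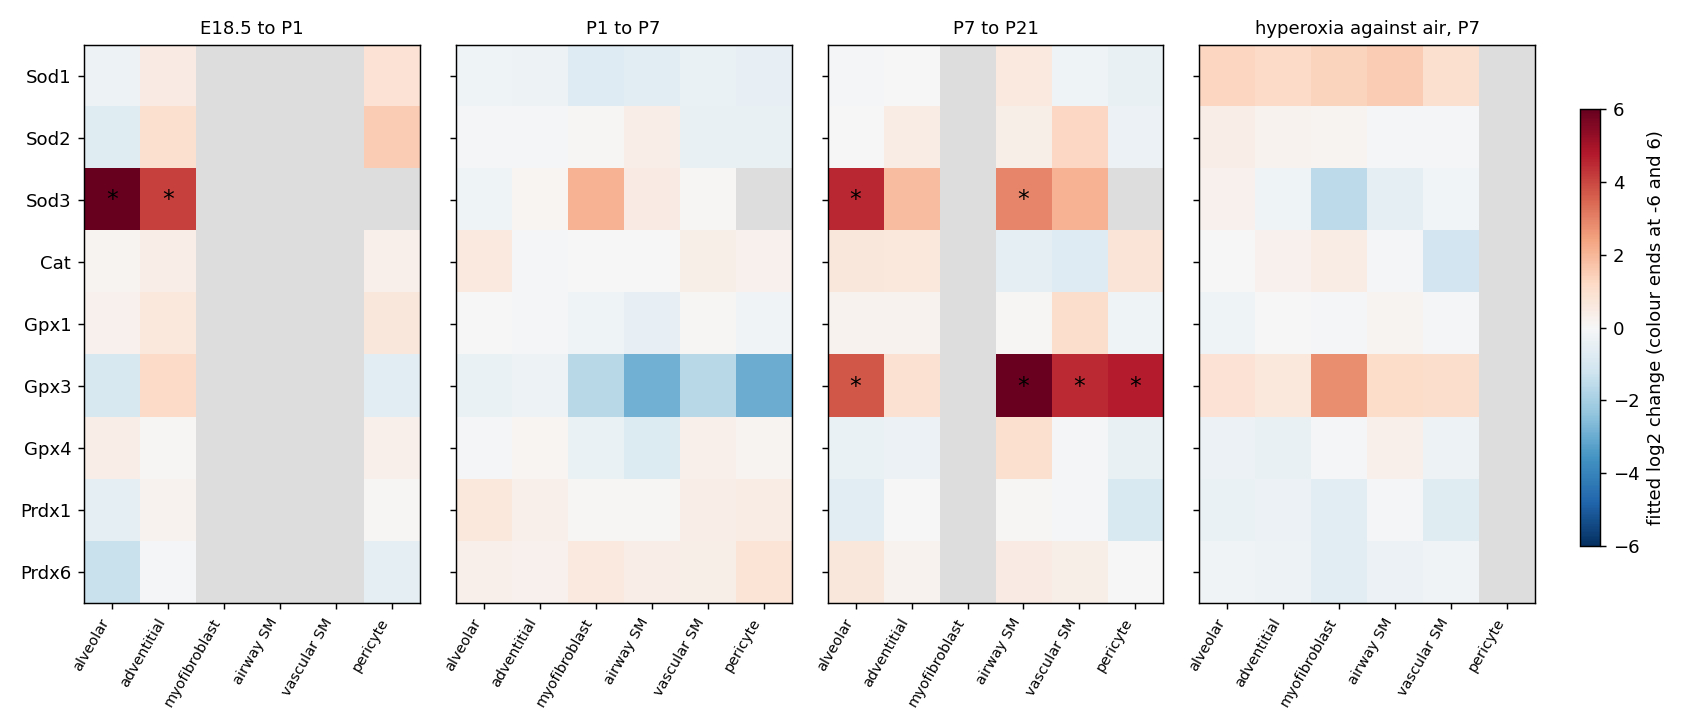
Fitted log2 change of each member (rows) in each class (columns) from E18.5 to P1, P1 to P7, P7 to P21 and in hyperoxia against air; red is higher, blue lower, grey was not compared or is Sod3 in pericytes, where its reads were at or near 0, the colour ends at -6 and 6, and asterisks mark an adjusted p under 0.05. The 8 asterisks stand on Sod3 and Gpx3, and none stands between P1 and P7 or under hyperoxia.

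At P7 in normal air Gpx3 separated fibroblasts from the rest (test among subtypes, adjusted p = 6.7e-07). Of the 9 members, Gpx3 and Sod3 passed that test, where 10.9% of all genes did. Against the mean of the other classes, Gpx3 was higher in adventitial fibroblasts by 2.22 (SE 0.30, adjusted p = 5.1e-06) and in alveolar fibroblasts by 2.14 (SE 0.30, adjusted p = 9.6e-06). It was lower in airway smooth muscle (-1.99, SE 0.41, adjusted p = 0.0031) and in pericytes (-1.59, SE 0.40, adjusted p = 0.0104). The fibroblast calls and the test among subtypes held without each of the 10 mice, the airway call ended without either P7 air mouse (0.0606 and 0.146) and the pericyte call without the female P7 air mouse (0.311). In 63 such tests of 1 class against the others, 8 passed, those 4 for Gpx3 and 4 for Sod3. For Sod3, pericytes, with 0 reads, lay below the others. Adventitial fibroblasts (4.41), airway smooth muscle (4.02) and vascular smooth muscle (4.96) lay above. The higher Sod3 calls ended with pericytes left out (adjusted p = 0.307, 0.637 and 0.0716 in the same order). Without the male P7 air mouse the adventitial (3.92), airway (3.88) and vascular (4.83) calls ended too. The airway call also ended without the female P7 air mouse (4.74), without the female or the male hyperoxia mouse (4.04 and 4.02), and with cells weighted equally (2.52). The share of all genes called was 6.01% for adventitial fibroblasts, 5.7% for alveolar fibroblasts, 3.47% for airway smooth muscle, 6.37% for pericytes, 3.78% for vascular smooth muscle, 1.26% for myofibroblasts and 3.13% for proliferating myofibroblasts.

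By P21 the order of classes for Gpx3 was alveolar fibroblasts, vascular smooth muscle and airway smooth muscle, pericytes, and adventitial fibroblasts. The muscle classes overlapped and no other neighbours in this order did. Alveolar fibroblasts lay 1.97 above the mean of the others (SE 0.32, adjusted p = 0.00018) and adventitial fibroblasts lay below it (-1.48, SE 0.40, adjusted p = 0.0230). The adventitial class, among the highest at P7, was thus the lowest at P21, and in it the thinned share of cells with a Gpx3 read was 72.3% and 70.6%, against 68.0% and 59.3% at P7. The test among subtypes passed (adjusted p = 0.000505) and ended without the male P21 mouse (0.0748), and the adventitial call ended without either P21 mouse (0.241 and 0.151).

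Prdx6, a peroxiredoxin that also reduces phospholipid hydroperoxides, was high in fibroblast precursors and alveolar fibroblasts and low in pericytes, and at P7 its highest sum was a myofibroblast sum (551 CPM). Precursors had 896 and 1102 CPM at E18.5. Alveolar fibroblasts had 390.3 and 454 CPM at P1, 493 and 539 at P7, and 707 and 1018 at P21. Pericytes had 203 and 79.3 CPM at E18.5, 87.4 and 105 CPM at P1, 167 and 165 at P7, and 78.9 and 286 at P21, below both alveolar mice at every age.

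Prdx6 was the 1 member of 9 to differ among subtypes at P1 (adjusted p = 0.0286), where 8.84% of all genes did. That call ended with pericytes left out (0.256) and without any 1 of the P1, P7 air or hyperoxia mice (0.0626 to 0.357). At P21 it differed again (adjusted p = 0.00271), ending without the female P21 mouse (0.143). There it was higher in alveolar fibroblasts by 1.53 (SE 0.33, adjusted p = 0.0041) and lower in pericytes (-1.53, SE 0.40, adjusted p = 0.0148), and both calls ended without the same female (0.107 and 0.327). Airway smooth muscle at P21 (0.84, SE 0.34, adjusted p = 0.243) and, at P7, myofibroblasts (0.83, SE 0.32, adjusted p = 0.285) and alveolar fibroblasts (0.81, SE 0.33, adjusted p = 0.174) did not pass. From precursors at E18.5 to alveolar fibroblasts at P1 the difference was -1.25 (SE 0.30, adjusted p = 0.293).

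Gpx1, the cytosolic glutathione peroxidase, was highest in vascular smooth muscle at P21, at 785 CPM in the female and 1754 CPM in the male. Airway smooth muscle had 656 and 709 CPM at that age, alveolar fibroblasts 367 and 694, adventitial fibroblasts 348 and 669, and pericytes 215 and 644. The classes overlapped, since the male was above the female in each of them. Taken within mice, Gpx1 differed among subtypes at P21 (adjusted p = 0.00214), with vascular smooth muscle 1.20 above the mean of the others (SE 0.22, adjusted p = 0.0011) and pericytes below it (-0.82, SE 0.26, adjusted p = 0.0443). The vascular sum of the male held 19 cells. The test among subtypes ended when at least 20 cells were asked for, which drops that class (0.126), the vascular call ended without the male P21 mouse (0.0764), and the pericyte call ended in 8 of the 10 fits that left out a mouse.

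At P21, 4 of 9 members differed among subtypes (Gpx3, Gpx1, Prdx6 and Sod3), where 10.1% of all genes did. Of 45 tests of 1 class against the others at that age 8 passed. The share of all genes called was 4.19% for alveolar fibroblasts, 7.22% for pericytes, 5.47% for adventitial fibroblasts, 3.37% for vascular smooth muscle and 3.12% for airway smooth muscle. Alveolar fibroblasts had 3 members above the others (Gpx3, Prdx6 and Sod3) and pericytes had 3 below (Gpx1, Prdx6 and Sod3). The alveolar Sod3 call (3.36, SE 0.97, adjusted p = 0.0431) ended with pericytes left out (1.14, adjusted p = 0.612). It also ended without the female or the male P21 mouse (4.28 and 2.98) and without the female or the male hyperoxia mouse (3.34 and 3.39). The pericyte Sod3 call ended without the male P21 mouse (-7.87).

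The remaining 5 members had no call. Sod1, the cytosolic dismutase, ran from 62.02 to 489.5 CPM over 40 sums in normal air. The top value was an alveolar sum of E18.5, from the sums that stood apart, and the highest from P1 to P21 was 354 CPM. In 19 of 20 pairs of class and age the male lay above the female, with a median difference of 0.58 on the log2 scale. Gpx1 and Gpx4 were higher in the male in 18 and 17 of 20 pairs. Sex and run move together here, since the males in normal air shared a run, and cannot be told apart. Sod2, the mitochondrial dismutase, had a median over classes of 96.7 CPM at P1, 103.6 at P7 and 127 at P21, and ran from 57.5 to 247 CPM at P21. At E18.5 its alveolar sums were 5.68 and 510.0 CPM, in the sums that stood apart.

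Catalase ran from 26.0 to 324 CPM in normal air, with its highest sum in the alveolar fibroblasts of the male at P21, where the female had 163 CPM. In vascular smooth muscle at P21 the order of the mice was turned round, with 220.1 CPM in the female and 30.9 CPM in the male. Prdx1, a cytosolic peroxiredoxin, was highest in myofibroblasts at P7 with 1076 and 1138 CPM, above the other 5 compared classes (566 to 845 CPM). Proliferating myofibroblasts had 909.6 and 1131 CPM, and the test among subtypes did not pass (adjusted p = 0.180). From P7 to P21 Prdx1 differed in opposite directions in the female and the male in adventitial fibroblasts (-0.87 and 0.61), airway smooth muscle (-0.67 and 0.58) and vascular smooth muscle (-0.91 and 0.44).

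Gpx4, which reduces lipid hydroperoxides in membranes, needs care. Its row held 35.4 to 100.03 CPM in normal air, while the near-identical retrocopy Gpx4-ps2 held 119.8 to 425 CPM and 382% of Gpx4's reads in all. Their levels were correlated over the 64 sums (Pearson r = 0.90), so reads of 1 gene may have been split between the rows. Summed, they ran from 155.5 to 525 CPM with a median of 275 CPM, and neither row passed any of the 37 tests. Near-identical copies of Sod1 and Prdx1 in the annotation were not analysed here.

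Under hyperoxia at P7, 0 of 45 member tests passed in 5 classes, and 0 of 70252 tests over all genes (0% in each class), with 3228 of those and 6 of the member tests at an unadjusted p under 0.05. DESeq2 called 3 member tests (Sod1 in airway smooth muscle and myofibroblasts, Gpx3 in myofibroblasts) and 1349 over all genes, and 1 limma-voom fit of all classes called 8 and 1785. Pericytes had too few cells under hyperoxia to compare. What follows gives values that did not pass.

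Sod1 was higher in both hyperoxia mice than in both air mice in each of 5 classes. In alveolar fibroblasts the female and the male had 173 and 257 CPM in air and 439 and 587 CPM in hyperoxia (log2 difference 1.29, SE 0.43, adjusted p = 1). Adventitial fibroblasts had 150.5 and 253 CPM in air and 369.7 and 494 in hyperoxia (1.13, SE 0.39, adjusted p = 0.621). Myofibroblasts had 127 and 216 CPM, then 350.3 and 435 (1.32, SE 0.30, adjusted p = 0.490). Airway smooth muscle had 127 and 185 CPM, then 351 and 525 (1.53, SE 0.37, adjusted p = 1), and vascular smooth muscle 146 and 213, then 324 and 388 (0.98, SE 0.58, adjusted p = 1). The plates of each mouse with at least 10 cells of a class, taken apart, did not overlap between conditions for Sod1 in any of the 5 classes. Plates are parts of the same mice and add no replicate, and no share over all genes was computed for plates. Over all genes, both hyperoxia mice lay above both air mice for 15.3% to 26.5% of genes, by class, and below for 16.9% to 26.6%.

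Other values moved with the same mice. Each hyperoxia mouse had a run of its own. Thinned to 100000 reads, its cells had a median of 3795 (female) and 4520 (male) genes, against 2446.5 and 2347 in air. A small CD31 sort of the males was sequenced for both conditions in 1 run: its 14 air cells had 707 CPM of Sod1 pooled and its 9 hyperoxia cells had 948 CPM. Those air cells were above every hyperoxia plate of the compared classes with at least 10 cells (343 to 691 CPM), also taken without a scaling factor. The hyperoxia sums, at 324 to 587 CPM, carry a scaling factor and are not on the same scale. The male's sums include the cells of this small sort. The subtypes in the small sort differed, with 7 early alveolar cells in air and 7 early adventitial cells in hyperoxia. The part of run and of gene number in the Sod1 difference was not tested.

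Gpx3 was higher in both hyperoxia mice in 4 of 5 classes. In myofibroblasts it had 145 and 123 CPM in air and 971 and 770.4 CPM in hyperoxia (2.78, SE 0.33, unadjusted edgeR p = 8.4e-05, adjusted p = 0.175). Thinned, 33.6% and 28.1% of myofibroblasts had a Gpx3 read in air, and 81.0% and 95.6% in hyperoxia. Alveolar fibroblasts had 716 and 596 CPM in air and 1279 and 1079.7 in hyperoxia (0.86, SE 0.37, adjusted p = 1), and adventitial fibroblasts 775 and 593, then 1101 and 1017 (0.61, SE 0.35, adjusted p = 0.655). Vascular smooth muscle had 108 and 211 CPM, then 433 and 239.6 (1.05, SE 0.53, adjusted p = 1). Airway smooth muscle had 64.5 and 50.2 CPM, then 238 and 34.6, and overlapped. The difference between classes in this effect did not pass (adjusted p = 0.731). Immune markers summed to 37.0 to 67.9 CPM in air myofibroblasts and 79.0 to 114 CPM in hyperoxia myofibroblasts, and their part was not tested. In the CD31 run, Gpx3 was at 1106 CPM in the air cells and 1483 CPM in the hyperoxia cells.

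Sod3 was lower in both hyperoxia mice in myofibroblasts, with 102 and 75.7 CPM in air and 26.9 and 27.3 CPM in hyperoxia (-1.56, SE 0.66, adjusted p = 0.790). It was lower in both hyperoxia mice in 3 of 5 classes, and its differences outside myofibroblasts lay between -0.57 and 0.27. Single plates did not overlap in myofibroblasts or in airway smooth muscle (128 to 212 CPM in hyperoxia, 223 to 380.5 CPM in air), again with no share over all genes computed. The test of a difference between classes gave an unadjusted edgeR p of 0.00096 and an adjusted p of 0.159, and 0.106% of all genes passed it. Prdx1 was lower in both hyperoxia mice in 5 of 5 classes (-0.10 to -0.72), for example with 1076 and 1138 CPM in air and 749 and 572 CPM in hyperoxia in myofibroblasts (-0.66, SE 0.33, adjusted p = 0.807). Single plates overlapped between the conditions for Prdx1 in all 5 classes, in myofibroblasts with 548 to 1009 CPM in hyperoxia and 912 to 1323 CPM in air. In the CD31 run Prdx1 ran against this, with 644 CPM in air cells and 944 CPM in hyperoxia cells. Sod2, Cat, Gpx1, Gpx4 and Prdx6 differed by -1.16 to 0.44 over the 5 classes, and at 2 standard errors the intervals of Gpx1 ran from -1.20 to 1.08 in vascular smooth muscle and from -0.46 to 0.74 in airway smooth muscle.

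**Figure D4:**
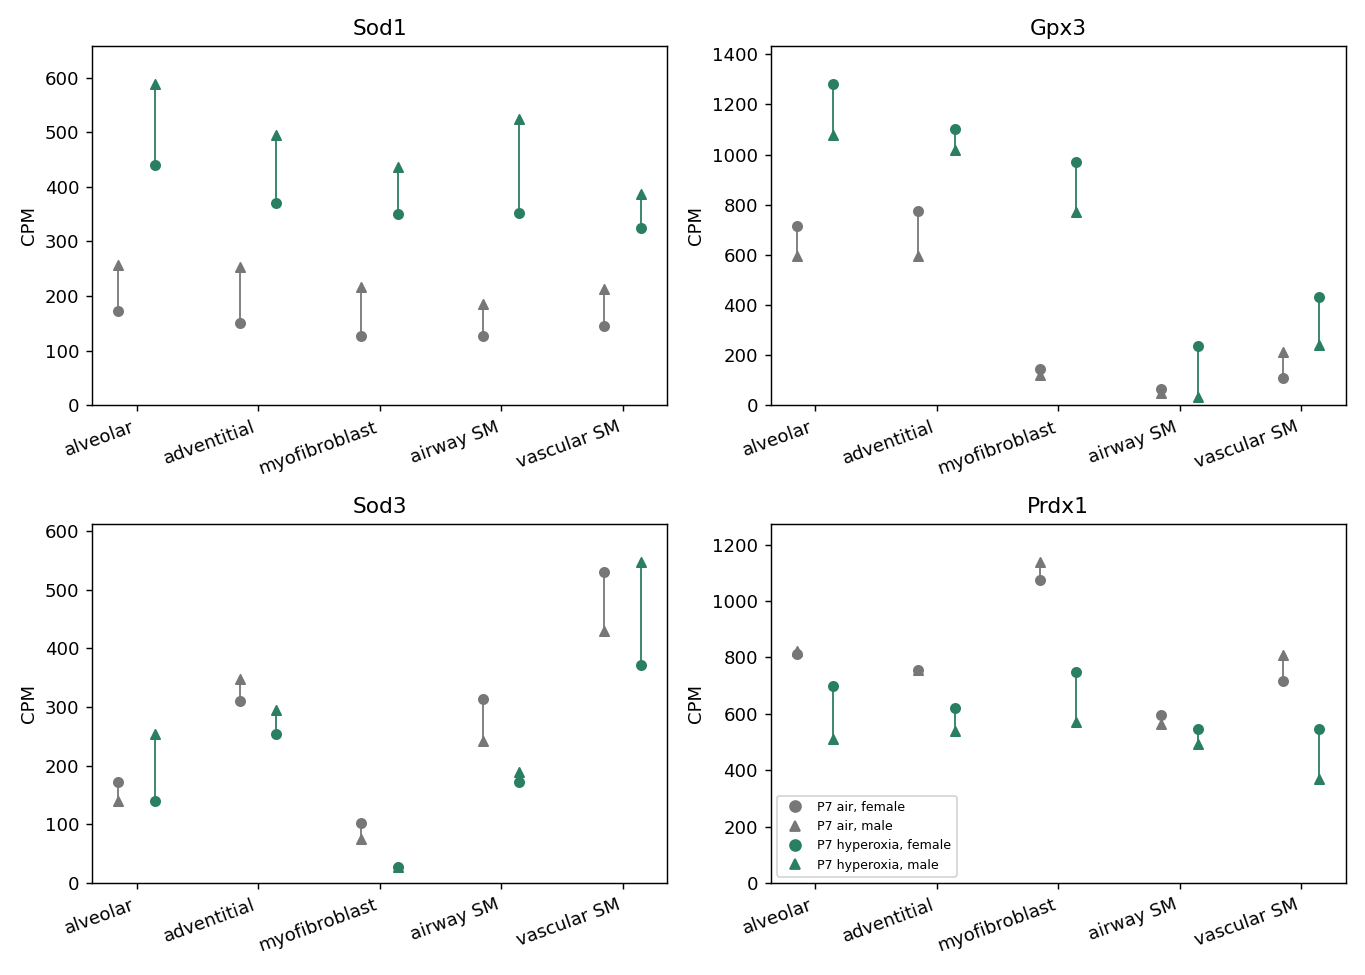
Levels of Sod1, Gpx3, Sod3 and Prdx1 at P7 in normal air (grey) and hyperoxia (green) by cell class, in CPM on a linear axis; circles are female mice, triangles male mice, and a line joins the mice of a group. Sod1 lies at 127 to 257 CPM in air and 324 to 587 CPM in hyperoxia with no overlap in any class, and no difference shown passed the adjusted p of 0.05 in edgeR.

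Of 42 other antioxidant genes listed, 40 were measured. Among subtypes, 7 of 40 differed at P1, 10 at P7 and 4 at P21, where 8.84%, 10.9% and 10.1% of all genes did. At P7 the alveolar fibroblasts had 4 above the other classes, among them Mgst1, a microsomal glutathione transferase (3.68, SE 0.86, adjusted p = 0.0066), Selenop, the plasma selenium carrier (1.96, SE 0.34, adjusted p = 0.00028) and Prdx5 (1.18, SE 0.27, adjusted p = 0.0051). Adventitial fibroblasts had 3 above and 1 below: Selenop was higher by 2.40 (SE 0.34) and Pon2, a paraoxonase, was lower (-2.54, SE 0.73). Pericytes had 3 above and 2 below, with Atp7a, the copper transporter that loads SOD3, higher by 4.49 (SE 0.80, adjusted p = 0.00032) and 421 CPM. Of all genes, 5.7% were called in alveolar fibroblasts, 6.01% in adventitial fibroblasts and 6.37% in pericytes at P7. At P21 pericytes had 2 above and 3 below, where 7.22% of all genes were called. Atp7a was again higher (5.05, SE 0.97, adjusted p = 0.00069), as was Pon2 (1.83, SE 0.55). Srxn1 (-11.18, SE 2.85) and Mgst1 (-7.86, SE 1.86) were lower. Pericytes were the class with the fewest Sod3 reads, and any link with these genes was not tested.

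From P7 to P21, 1 of the other antioxidant genes passed in 5 classes: Selenop rose in airway smooth muscle from 47.6 to 574 CPM (3.82, SE 0.48, adjusted p = 0.0091), in the same class and interval as Gpx3. There 1.13% of all genes were called. From E18.5 to P1, 5 of 39 tested passed in alveolar fibroblasts and 1 in adventitial fibroblasts, Srxn1, all higher at P1 from sums at or near 0 reads. Of all genes 6.16% and 0.17% were called there, and 956 of the 966 called in alveolar fibroblasts were higher at P1. No listed gene passed from P1 to P7 or under hyperoxia, where the median difference of the 38 or 39 tested lay between -0.28 and 0.03 by class.

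Of 14 listed genes for oxidant-producing enzymes, 13 were measured, and 1, 3 and 1 differed among subtypes at P1, P7 and P21, against the same 8.84%, 10.9% and 10.1% of all genes. Nox4, an NADPH oxidase that releases hydrogen peroxide, was higher in pericytes at P7 (2.55, SE 0.60, adjusted p = 0.0063, 320.2 CPM). In the same class and at the same age the monoamine oxidases Maob (-8.47, SE 2.48, adjusted p = 0.0346) and Maoa (-6.08, SE 1.46, adjusted p = 0.0071) were lower. Of all genes, 6.37% were called there. Cyba, the p22phox subunit, was higher in alveolar fibroblasts (1.00, SE 0.27, adjusted p = 0.0209). Maob, a mitochondrial monoamine oxidase, rose in airway smooth muscle from P7 to P21, from 35.7 to 489.9 CPM (3.81, SE 0.59, adjusted p = 0.0190). None of the 8 to 12 tested, by class, passed under hyperoxia.

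The genes whose levels were most like each member's over the 64 sums, by Pearson correlation of log2(CPM + 1) among 9468 genes, are given with no test, as the sums share mice and runs. For Sod3 they were Anxa1 (r = 0.79), Gas6 and Mrgprf. For Gpx3 they were Fth1, the ferritin heavy chain (r = 0.66), Selenop and Gstm1. Sod1 was nearest to Ptp4a2 (r = 0.75), St13 and Set, Prdx1 to the proteasome subunit Psmb2 (r = 0.71), Elob and Psma7, and Gpx1 to Myl6 (r = 0.73), Lpp and Rtl8c. Sod2 was nearest to Pfkm (r = 0.65), Cat to Ube4a (r = 0.63) and Prdx6 to Spata13 (r = 0.65). No member was among the 3 nearest genes of another: Sod3 and Gpx3, which both rose to P21, had r = 0.22 with each other.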

How the data were processed

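Single cells of 10 mice were amplified in plates with Tn5-based libraries and no separate RNA extraction, per the labels' protocols. The authors deposited whole-number read counts per gene and cell, without molecular identifiers. The submitters' processing notes name STAR 2.5.2b, HTSeq 0.10 and the build GRCh38, which is a human build although the mice carry mouse gene names, so how reads were placed is not settled here.

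Counts were summed per mouse and class (at least 10 cells) and tested with edgeR 4.0.16 in R 4.3.3 (quasi-likelihood, TMM factors, edgeR's filter on low counts, two-sided, Benjamini-Hochberg over all genes). Age and hyperoxia were fitted per class on sex and group over all mice, so the sex term is the replicate block of the female and male numbers. Subtypes and interactions were fitted with the mouse as a block. Nothing in the labels says whether the mice were littermates. Alternatives were DESeq2 1.42.0, limma 3.58.1, another normalization, other filters and leaving out each mouse. The scripts were tested on simulated data. Totals were 294154721 to 671766116 reads and 311 to 633 cells per mouse, and intervals cover 2 standard errors. Of all cells, 71 came from a CD31 or CD45 sort. Members, gene lists and markers were chosen with earlier results of these data known. All 9 members were tested in every comparison. From each list up to 4 genes past the threshold and at 10 CPM or more were picked per comparison, and not all of these are named in the text.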

Additional observations from a re-analysis of the deposited data

Results flagged for a closer look

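The change of Gpx3 from P7 to P21 differed between cell classes by the test of the difference itself (edgeR interaction, adjusted p = 0.00882), from 0.91 on the log2 scale in adventitial fibroblasts to 5.93 in airway smooth muscle.

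Sums outside the comparisons held 3 values above those of the compared classes. The striated muscle cells of the female P21 mouse (16 cells) had 1265 CPM of Sod2, against 57.5 to 247 CPM in the compared classes at P21. The same sum had 111 CPM of Gpx4, against 35.4 to 100.03 CPM. The cells named male hyperoxic fibroblasts, 55 cells of the male hyperoxia mouse, had 202 CPM of Sod2, against 45.5 to 141 CPM in the compared classes under hyperoxia. Another 4 values lay below the compared classes: Gpx1 in the striated muscle cells (85.6 CPM, against 215 to 1754 CPM), and in the hyperoxic fibroblasts Cat (80.1 CPM, against 85.8 to 160 CPM), Gpx1 (309.9 CPM, against 341 to 798 CPM) and Prdx1 (370.0 CPM, against 370.4 to 749 CPM). Each rests on 1 mouse and has no replicate.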

How the results depend on the processing

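Of 1379 single-gene values recomputed under 21 other settings, 1199 kept their direction and side of the threshold, 101 were no longer past it, 76 were newly past it and 3 reversed. The reversed values were Sod3 against the other classes at P21 in airway smooth muscle (-0.0488) and vascular smooth muscle (-0.0523) with pericytes left out, and Gpx3 from E18.5 to P1 in alveolar fibroblasts (0.30) with cells weighted equally; the cause was not tested.

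Counts of member calls moved as follows. Asking for at least 20 cells gave 3 for subtypes at P1, 5 for subtypes at P7, 14 for 1 class against the others at P7 and 6 from E18.5 to P1. Weighting cells equally gave 2 for subtypes at P1 and 5 at P7, and the mesenchymal sort alone gave 2 at P1. Leaving out pericytes gave 0 at P1 and 1 at P7 for subtypes, and 5 at P7 and 4 at P21 for 1 class against the others. DESeq2 gave 4 from P1 to P7 and 3 under hyperoxia. The joint limma-voom fit gave 7 from E18.5 to P1, 2 from P1 to P7 and 8 under hyperoxia. From P7 to P21 it gave 7, without the Gpx3 calls in airway smooth muscle, pericytes and vascular smooth muscle. No filter on low counts gave 1 from P1 to P7 and 1 under hyperoxia, and fitting only the 4 mice compared gave 5 from E18.5 to P1 and 1 under hyperoxia. The cause of these moves was not tested.

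Leaving out each of 10 mice gave 0 to 2 calls for subtypes at P1, 1 to 4 at P7 and 2 to 4 at P21, 4 to 10 and 3 to 8 for 1 class against the others at P7 and P21, 1 to 5 from E18.5 to P1, 0 to 2 from P1 to P7, 2 to 7 from P7 to P21, 0 to 2 under hyperoxia, and 0 to 1 for the difference between classes from P7 to P21. Without the replicate block (no term for sex) the counts were 2 from E18.5 to P1, where the Sod3 call in adventitial fibroblasts was lost (3.87, adjusted p = 0.0577), 0 from P1 to P7, 6 from P7 to P21 and 0 under hyperoxia, and no other call changed. Another normalization (RLE) moved the median change of all genes by -0.22 in alveolar fibroblasts from E18.5 to P1 and by 0.10 from P7 to P21.

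Age and hyperoxia were tested per class with 2 to 4 residual degrees of freedom. The shallowest sum held 3124000 reads, and 168 cells lay under the 100000 reads used for shares of cells.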
